A study of Sus scrofa with 6 samples.

Results

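Cell surface heparan sulfate proteoglycans and a pair of their ligands were followed in differentiating porcine satellite cells (PSCs), which are the stem cells of muscle and form myotubes by fusion. The genes were 4 syndecans (SDC1, SDC2, SDC3, SDC4), 4 glypicans (GPC1, GPC3, GPC4, GPC6), pleiotrophin (PTN) and midkine (MDK), taken as the rows whose pig Ensembl identifier is paired with one of these symbols. Of the 10 symbols, 9 were found among the 28266 rows of the table, and SDC4 was not analysed here because no identifier was paired with it. GPC6 lay under the expression minimum, so 8 genes were tested.

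Syndecans span the membrane and glypicans hang from it on a glycosylphosphatidylinositol (GPI) anchor. Both carry heparan sulfate, a sulfated sugar chain that binds growth factors, morphogens and matrix proteins and presents them to their receptors. PTN and MDK are small secreted growth factors of one family that bind such chains. In skeletal muscle, syndecan-3 and syndecan-4 are known as surface markers of satellite cells, and heparan sulfate is known as a partner of fibroblast growth factor signaling in these cells.

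The libraries came from Yorkshire pig skeletal muscle PSCs, isolated in the study from young male piglets by preplating and grown on Matrigel, and fell into 2 groups of 3 libraries (replicates 4, 5 and 6 of each), called N1 and N2. N1 was labelled 24 h of differentiation. N2 was labelled 48 h on the samples, whereas the series title and the study's text give 36 h, so the groups are named by their codes here. By the study's own marking, the letter N stands for cells that had received negative control (NC) siRNA before the switch to horse serum, and this treatment was shared by both groups. The H19 siRNA libraries were not analysed here. No source says whether the libraries of a group came from separate animals or cultures, so the p-values measure only the spread between these samples.

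Values are FPKM (counted fragments of a gene scaled to the length of its model and to the total of the library). Levels of different genes can be compared only as far as their models are complete, and the model of GPC6 had only 513 bases. The libraries held 16338755 to 21840954 counted fragments, and 1 fragment on a 1 kb gene was worth an FPKM of 0.0457 to 0.0610. Myogenic markers were present in all libraries, with MYF5, MYOD1, DES and CDH15 summing to 2138 to 2341 FPKM in N1 and 3523 to 3898 in N2. DES made up most of these sums (means of 1693 in N1 and 3182 in N2), and CDH15 was also higher in N2 (176 and 271). MYF5 (84.7 and 59.9) and MYOD1 (316 and 254) had lower means in N2, with overlapping groups. One protocol label speaks of endometrium. The 5 endometrial epithelial markers summed to 0.290 to 0.676 FPKM in N1 and 2.60 to 4.54 in N2, with PGR at 0 throughout and CDH1 at 2.35 to 4.36 of the N2 sum. N1 replicate 6 stood apart within its group, with the lowest summed level of 13 contractile and fusion genes (3940 FPKM against 7401 and 8779 in the other N1 libraries, and 19255 to 22345 in N2) and the highest of 12 proliferation genes (225 against 83.8 and 113, and 25.9 to 34.8 in N2). The members' log2 changes were also computed without it. In whole cultures, fewer cells of a type and less RNA per cell cannot be told apart.

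Of the 8 tested genes, 6 differed between N1 and N2, GPC3 and SDC2 being higher in N2 and GPC4, PTN, SDC3 and MDK lower. GPC3 rose 2.60-fold and GPC4 fell 2.22-fold, while GPC1 and SDC1 did not pass the test. The test was limma on log2(FPKM + 1), with p adjusted by Benjamini-Hochberg over the 14060 rows whose mean FPKM reached 1, at a threshold of 0.05. Of those rows, 50.9% passed, 16.5% as higher and 34.4% as lower in N2, and the median log2 change was -0.16, so the members' 6 of 8 (75.0%) and their median of -0.31 are read against a background in which most rows moved. The same 6 genes were those with no overlap between the groups, which held for 63.6% of all tested rows (21.0% higher and 42.6% lower in N2). The 6 calls held in each of the 15 alternative settings. Without N1 replicate 6 there were 7, since SDC1 was then also called.

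**Figure D1:**
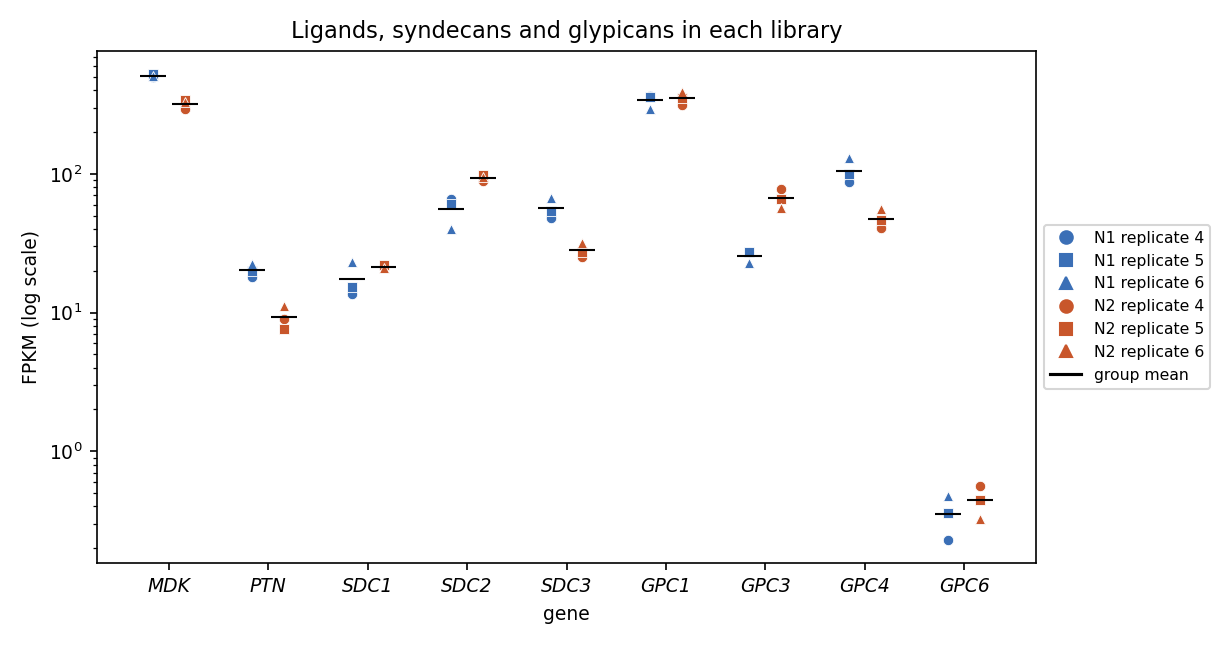
FPKM of the 9 genes found, on a log axis, with 1 point per library and a bar at the mean of each group of 3. GPC3 and SDC2 sit higher in N2, and PTN, MDK, SDC3 and GPC4 sit lower, in each case with no overlap between the groups.

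MDK and PTN, the heparin-binding growth factors, both fell. MDK (ENSSSCG00000013260, chromosome 2, 16130787 to 16133791 in Sscrofa11.1) had the highest mean level of all members in N1, with FPKM values of 497, 526 and 509. In N2 its values were 293, 339 and 331, so each N2 library lay under each N1 library. The mean fell from 511 ± 14.4 to 321 ± 24.3 (SD, n = 3 each), that is 1.59-fold, with a log2 change of -0.67 ± 0.076 (SE) and an adjusted p of 0.0013. Over the 6 libraries, 98.6% of the tested rows had a lower mean FPKM than MDK. The gene overlaps CHRM4 by 0.294 kb in the RefSeq annotation, and how shared reads were assigned is not given in the sources used here.

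PTN (ENSSSCG00000016522, chromosome 18, 12219708 to 12309045) was measured at a far lower level than MDK. Its FPKM was 18.2, 19.9 and 22.6 in N1 and 9.03, 7.59 and 11.14 in N2, again with no overlap. The mean fell from 20.2 ± 2.21 to 9.25 ± 1.78 (SD, n = 3 each), 2.19-fold, with a log2 change of -1.06 ± 0.14 (SE) and an adjusted p of 0.00195. It was -0.98 without N1 replicate 6, and that of MDK stayed at -0.67. The MDK to PTN ratio of FPKM was 27.3, 26.4 and 22.6 in the N1 libraries and 32.5, 44.6 and 29.7 in the N2 libraries, so MDK made up nearly the whole of the pair's FPKM in both groups. PTN and MDK summed to 531 ± 15.2 FPKM in N1 and 330 ± 24.2 in N2 (SD, n = 3 each), 1.61-fold lower.

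Among the syndecans, SDC2 and SDC3 went in opposite directions. SDC3 (ENSSSCG00000003592, chromosome 6, 87495041 to 87535689), the syndecan known from satellite cells and nerve tissue, had FPKM values of 48.0, 54.0 and 67.5 in N1. Its N2 values were 25.2, 27.3 and 31.8, all under the lowest of N1. The mean fell 2.01-fold, from 56.5 ± 9.95 to 28.1 ± 3.38 (SD, n = 3 each), with a log2 change of -0.97 ± 0.14 (SE) and an adjusted p of 0.00239. Without N1 replicate 6, which held the highest value, the log2 change was -0.84.

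SDC2 (ENSSSCG00000006088, chromosome 4, 40003618 to 40129483), known as the main syndecan of fibroblasts and other mesenchymal cells, had FPKM values of 65.6, 60.9 and 40.2 in N1. It rose to 88.9, 98.0 and 95.3 in N2, and N1 replicate 6 had the lowest value of all. The mean rose 1.69-fold, from 55.6 ± 13.5 to 94.0 ± 4.68 (SD, n = 3 each), with a log2 change of 0.78 ± 0.18 (SE) and an adjusted p of 0.0109. Without N1 replicate 6 the log2 change was 0.56. SDC2 and SDC3 had nearly equal means in N1, 55.6 and 56.5, with overlapping libraries, whereas in N2 every library had more SDC2 than SDC3. The SDC2 to SDC3 ratio of FPKM was 1.37, 1.13 and 0.596 in N1 and 3.52, 3.59 and 2.99 in N2. It rests on gene models of 1854 bases for SDC2 and 5130 for SDC3. In fragments, SDC3 exceeded SDC2 in N1 (14403 against 5134), and SDC2 exceeded SDC3 in N2 (10586 against 8697).

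SDC1 (ENSSSCG00000008601, chromosome 3, 117987585 to 118011886), the syndecan best known from epithelia and plasma cells, did not pass the test. Its FPKM was 13.7, 15.4 and 23.3 in N1 and 21.4, 21.9 and 21.0 in N2, and the N1 replicate 6 value exceeded all N2 values. The log2 change was 0.31 with a 95% confidence interval of -0.11 to 0.74 and an adjusted p of 0.179. Without N1 replicate 6 it was 0.53, with an adjusted p of 0.00192, so whether SDC1 passed turned on that library. With all libraries kept, scaling also moved it, to 0.48 with median-ratio scaling (limma adjusted p of 0.0507) and 0.42 with quantile scaling (0.0938). Both missed the threshold. The 3 syndecans together gave 127 to 131 FPKM in N1 and 135 to 148 in N2, which do not overlap and have means 1.11-fold apart.

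GPC3 and GPC4, neighbours on the X chromosome, also moved in opposite directions. GPC3 (ENSSSCG00000012680, chromosome X, 109536495 to 109973605), a glypican known for binding Hedgehog and Wnt ligands, and whose loss causes an overgrowth syndrome, had FPKM values of 27.2, 27.3 and 22.6 in N1. In N2 it stood at 77.6, 66.5 and 56.9, at least double the highest N1 value in every library. The mean rose 2.60-fold, from 25.7 ± 2.67 to 67.0 ± 10.4 (SD, n = 3 each), with a log2 change of 1.34 ± 0.13 (SE) and an adjusted p of 0.000928. In absolute size this was the largest change among the 8 tested members, and it exceeded that of 96.1% of all tested rows. Without N1 replicate 6 it was 1.25.

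GPC4 (ENSSSCG00000012679, chromosome X, 109306489 to 109421947), a glypican known as a co-receptor in Wnt and fibroblast growth factor signaling, had FPKM values of 86.9, 100.03 and 130.1 in N1. Its N2 values were 41.0, 46.3 and 55.5, all well under those of N1. The mean fell 2.22-fold, from 106 ± 22.1 to 47.6 ± 7.33 (SD, n = 3 each), with a log2 change of -1.12 ± 0.17 (SE) and an adjusted p of 0.00269. Without N1 replicate 6 it was -0.97. In RefSeq, GPC3 is the next coding gene after GPC4, 114.5 kb away. The ratio of GPC4 to GPC3 in FPKM was 3.20, 3.66 and 5.74 in the N1 libraries and 0.529, 0.697 and 0.976 in the N2 libraries. The order of the pair by FPKM was thus turned in all of them. It rests on gene models of 1968 bases for GPC4 and 1105 for GPC3. In fragments, GPC4 still exceeded GPC3 in N2 replicates 5 (1996 against 1608) and 6 (1968 against 1132), but not in replicate 4 (1679 against 1783).

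GPC1 (ENSSSCG00000016364, chromosome 15, 139457866 to 139483704), the glypican with the highest level in these cells, did not pass the test. Its FPKM was 365, 359 and 296 in N1 and 316, 353 and 391 in N2, and the groups overlapped. The log2 change was 0.056, with a 95% confidence interval of -0.22 to 0.33 and an adjusted p of 0.702. Its sign turned when N1 replicate 6 (-0.040) or N2 replicate 6 (-0.019) was left out. Of the tested rows, 98.4% had a lower mean FPKM than GPC1, and 54012 and 68117 fragments stood behind it in N1 and N2.

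GPC6 (ENSSSCG00000009489, chromosome 11, 62436143 to 63560908) was near the limit of these libraries. It had 2, 3 and 4 fragments in N1 and 6, 5 and 3 in N2, on a gene model of only 513 bases. Pooled over each group, 9 fragments gave an FPKM of 0.353 (exact Poisson 95% interval 0.161 to 0.669) and 14 fragments gave 0.449 (0.246 to 0.754). These intervals cover counting error only, they overlap, and a change of GPC6 was not detectable at this depth.

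**Figure D2:**
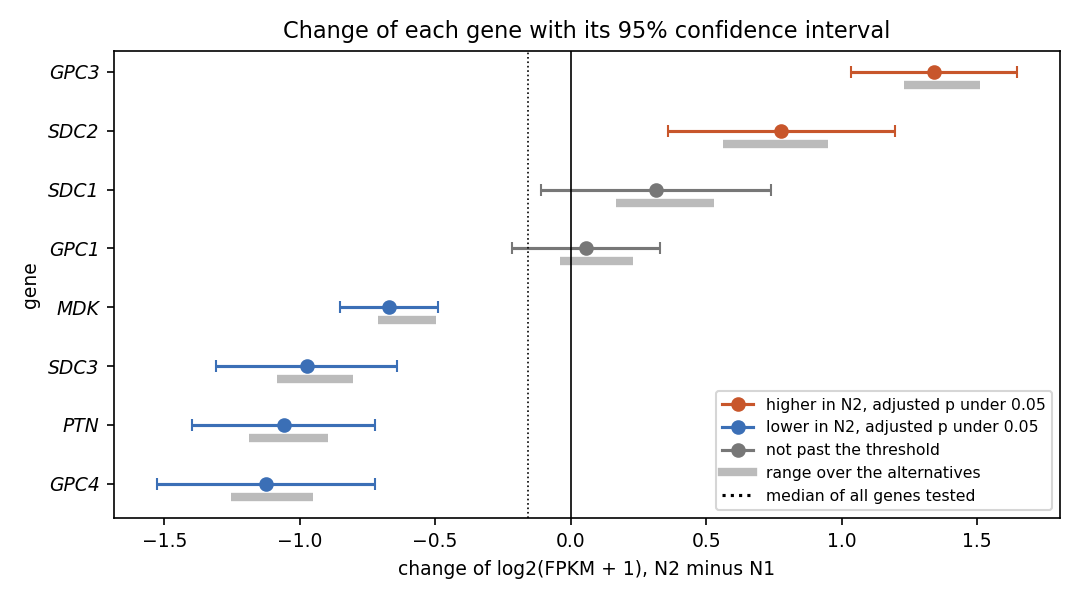
Log2 change (N2 against N1, on log2(FPKM + 1)) of the 8 tested genes with 95% confidence intervals. The intervals of GPC3 and SDC2 lie above 0, those of MDK, SDC3, PTN and GPC4 lie under 0, and those of SDC1 and GPC1 cross it.

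Ordered by mean FPKM in N1, MDK (511) was followed by GPC1 (340.0), GPC4 (106), SDC3 (56.5), SDC2 (55.6), GPC3 (25.7), PTN (20.2), SDC1 (17.5) and GPC6. The libraries of SDC3 and SDC2 overlapped, as did those of PTN and SDC1, while the other neighbours did not. In N2 the order was GPC1 (353), MDK (321), SDC2 (94.0), GPC3 (67.0), GPC4 (47.6), SDC3 (28.1), SDC1 (21.4), PTN (9.25) and GPC6, and only GPC1 and MDK overlapped. GPC4 and SDC3 thus stood above SDC2 and GPC3 in mean in N1 and under both of them in N2.

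For the syndecans and the glypicans the summed FPKM of the groups, as deposited, lay close together. The shares of SDC2, SDC3, GPC3 and GPC4 did not overlap. The sums leave out SDC4 and GPC2 and were not repeated after scaling. Median-ratio scaling divides N1 libraries by 1.046 to 1.093 and N2 libraries by 0.935 to 0.952. It would thus raise the N2 sums against those of N1, while the shares within a library would stay. The 4 glypicans summed to 480, 486 and 449 FPKM in N1 and 435, 466 and 503 in N2, which overlap, with means in a ratio of 0.993. GPC3 made up 5.67%, 5.62% and 5.04% of that sum in N1 and 17.8%, 14.3% and 11.3% in N2, a difference of 9.01 percentage points. GPC4 made up 18.1%, 20.6% and 29.0% in N1 and 9.42%, 9.93% and 11% in N2, a difference of -12.4 points. The share of SDC2 in the syndecan sum went from 43.0% ± 10.9 to 65.5% ± 1.13 and that of SDC3 from 43.6% ± 7.14 to 19.5% ± 1.68 (SD, n = 3 each). For these 4 genes the exact permutation test (two-sided) gave p = 0.1, the smallest that 3 against 3 libraries can give, so the shares cannot pass 0.05 in this design. The shares of GPC1 (71.9% in N1 and 75.3% in N2) and SDC1 (13.5% and 15.0%) overlapped between the groups, and their differences of 3.39 and 1.49 points hung on single libraries, falling to 0.368 for GPC1 without N1 replicate 6 and to 0.143 for SDC1 without N1 replicate 4.

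**Figure D3:**
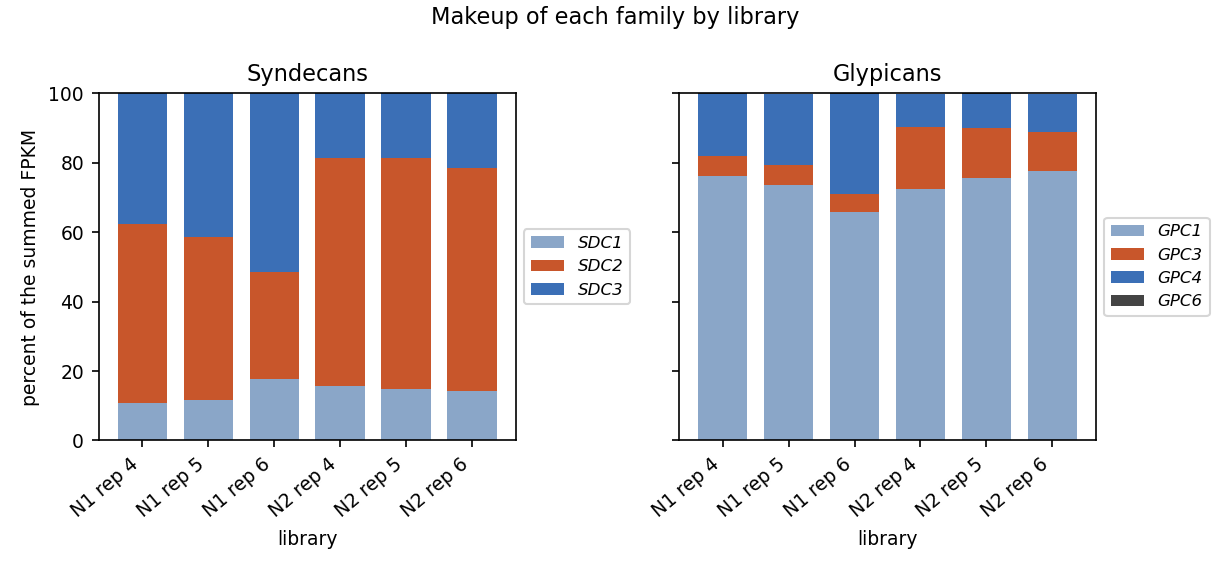
Share of each gene (percent) in the summed FPKM of the 3 syndecans found and of the 4 glypicans, 1 bar per library. SDC2 takes 30.7% to 51.5% of the syndecan sum in N1 and 64.3% to 66.6% in N2, and GPC3 rises from at most 5.67% to at least 11.3% of the glypican sum.

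The rows whose level over the 6 libraries was most like that of GPC3 were LAMB2 (Pearson r of 0.999 on log2(FPKM + 1)), JPH1 (0.999), PFKFB2 (0.998), KCNIP2 (0.998) and ZSWIM4 (0.998). LAMB2 encodes a laminin chain of the neuromuscular junction and JPH1 a junctophilin of the muscle triad. These values are a description over 6 libraries that share 2 groups, and 465 of the 7880 rows compared had an r over 0.95.

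The other genes of the heparan sulfate system were described by 8 lists that cover core proteins, synthesis, modification and breakdown of the chain, shedding, syndecan partners, PTN and MDK receptors and other heparin-binding ligands. Of 86 genes found, 64 were tested, 10 were higher and 38 lower in N2 and 16 did not pass, so 75.0% passed beside 50.9% of all rows. Their median log2 change was -0.38 beside -0.16 for all rows. The counts of each list below are likewise to be read beside the shares of all rows, of which 16.5% passed as higher and 34.4% as lower. Median-ratio scaling, which moved the median of all rows to -0.0058, left 12 of the 64 genes higher and 28 lower. Of all 14060 rows, 3367 were then higher and 3136 lower. The background for the counts of each list thus depends on the scaling.

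**Figure D4:**
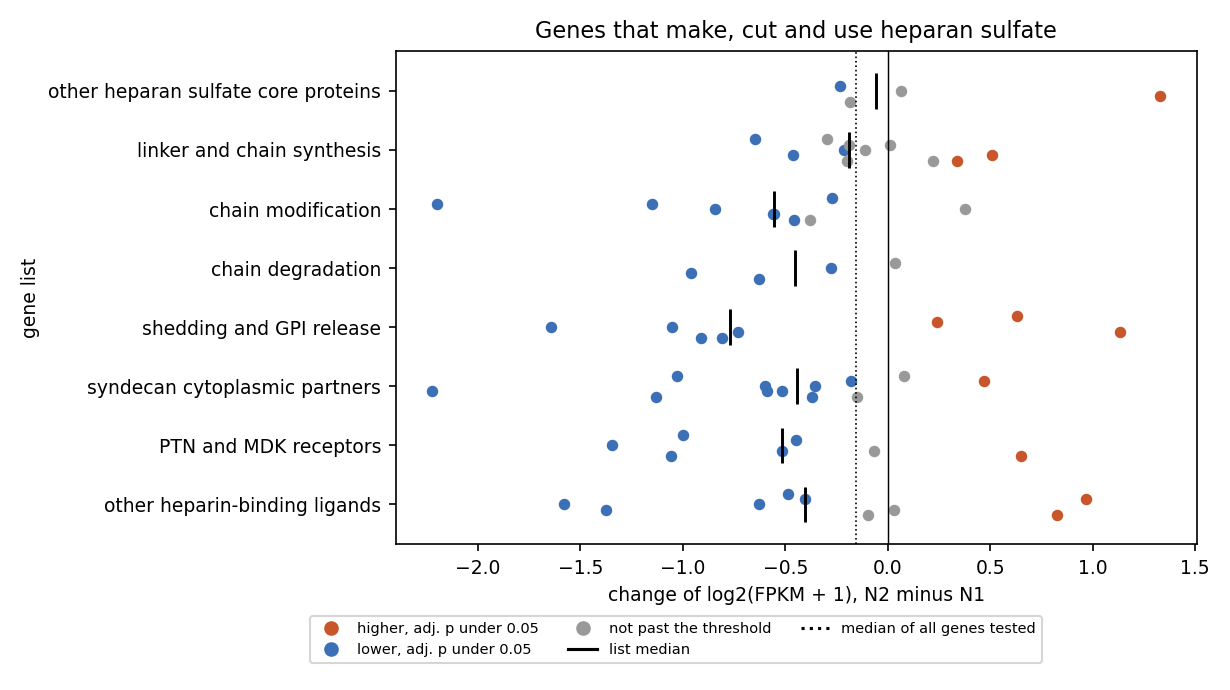
Log2 change (N2 against N1, on log2(FPKM + 1)) of the tested genes in each heparan sulfate list, with a point for each gene and a bar at the list median. Chain modification, chain degradation, syndecan partners and receptors hold mostly lower genes, and no gene of chain modification was called higher.

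Of the other heparan sulfate core proteins, 4 were tested, 1 was higher and 1 lower. GPC2, a glypican known from the developing nervous system, rose from 5.54, 6.62 and 4.65 FPKM in N1 to 14.6, 14.8 and 17.3 in N2, a log2 change of 1.33 (limma adjusted p of 0.000929). TGFBR3, the betaglycan co-receptor of TGF-beta, fell by 0.23 (adjusted p of 0.0368), a call lost in 6 of the 15 alternatives, namely both scalings and the settings without N1 replicate 4 or 5 or N2 replicate 5 or 6 (adjusted p up to 0.481). HSPG2, the basement membrane proteoglycan perlecan, stood at 84.9 ± 5.32 and 89.6 ± 14.2 FPKM (SD, n = 3 each), a log2 change of 0.066 with a 95% confidence interval of -0.22 to 0.35, and its sign turned without N2 replicate 6 (-0.039).

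Of the enzymes that build the linker and the chain, 11 were tested, 2 were higher, 3 lower and 6 did not pass. B3GAT3, the glucuronyltransferase that completes the linker, rose from 31.1 ± 1.05 to 44.7 ± 0.52 FPKM (log2 change 0.51, adjusted p of 0.0012). FAM20B, the xylose kinase of the linker, fell by 0.46, and EXTL2, a transferase that acts on the phosphorylated linker, fell by 0.65. UXS1, which makes the xylose donor and had the highest level of the list, stood at 41.5 ± 5.35 and 36.2 ± 0.84 FPKM (SD, n = 3 each) and did not pass (adjusted p of 0.145).

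The list for chain modification, which also holds genes that supply the sulfate donor (PAPSS2 and SLC35B3 among those tested), had none that passed as higher. Of its 9 tested genes, 7 were lower, and the list median was -0.55. HS6ST2, a 6-O-sulfotransferase, fell the most, from 98.7, 111 and 137 FPKM in N1 to 22.6, 21.8 and 28.7 in N2. This was 4.74-fold lower, with a log2 change of -2.20 ± 0.15 (SE) and an adjusted p of 0.00064. It lies on chromosome X (108755577 to 109043976), on the far side of GPC4 from GPC3. HS6ST1, the other 6-O-sulfotransferase tested, fell from 58.7 ± 2.16 to 32.5 ± 3.86 FPKM (SD, n = 3 each; log2 change -0.84, adjusted p of 0.00118). The HS6ST2 to HS6ST1 ratio was 1.74, 1.91 and 2.24 in N1 and 0.752, 0.714 and 0.778 in N2.

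SULF2, an extracellular sulfatase that removes 6-O-sulfates, fell from 16.0 ± 1.95 to 6.63 ± 0.39 FPKM (SD, n = 3 each; log2 change -1.15, adjusted p of 0.000788). HS2ST1, the 2-O-sulfotransferase, fell by 0.56. SULF1, the other sulfatase, had 4.23, 3.54 and 4.04 FPKM in N1 and 6.04, 6.01 and 4.32 in N2, with a log2 change of 0.38 and an adjusted p of 0.0543, which missed the threshold. SLC35B2, the transporter of the sulfate donor, is listed at 0 in all libraries although nearly all cells use it, so a value at or near 0 in this table does not show that a gene was off.

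**Figure D5:**
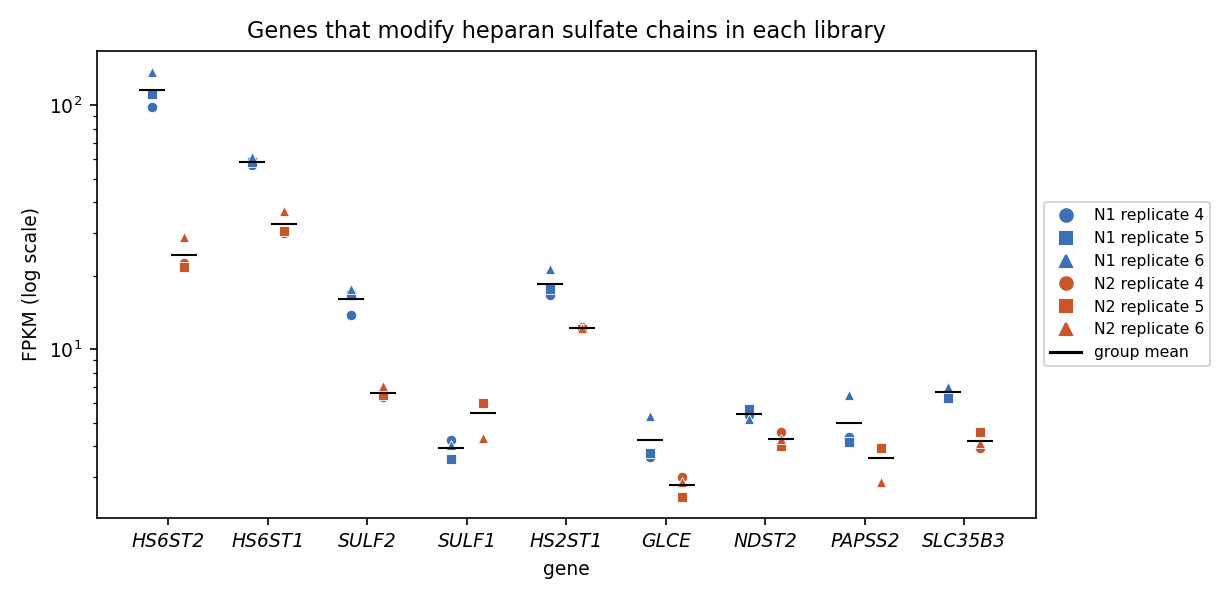
FPKM per library, on a log axis, of the tested genes of the chain modification list, which include the sulfate donor genes PAPSS2 and SLC35B3. HS6ST2 falls from 98.7 to 137 in N1 to 21.8 to 28.7 in N2, crossing HS6ST1, and SULF2 falls while SULF1 does not pass the test.

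Of the chain-degrading enzymes, 3 of the 4 tested were lower. GUSB, the lysosomal glucuronidase, fell from 53.0 ± 10.2 to 26.5 ± 0.90 FPKM (log2 change -0.96, adjusted p of 0.00194). IDS, a lysosomal sulfatase, fell by 0.28, and its call was lost with median-ratio scaling (-0.10, adjusted p of 0.194).

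Of the genes for shedding and GPI release, all 8 tested passed, 3 as higher and 5 as lower, beside 50.9% of all rows. No gene for GPI release was among the 8 tested. MMP14, a membrane-bound matrix metalloproteinase, rose from 50.0 ± 3.81 to 77.9 ± 4.28 FPKM (log2 change 0.63, adjusted p of 0.00155). The proprotein convertases PCSK5 and PCSK6 moved apart, PCSK5 with a log2 change of 1.13 and PCSK6 with -1.65. ADAM9, ADAM10 and ADAM17, membrane proteases known to cut cell surface proteins, fell by 1.05, 0.81 and 0.73. These are RNA levels, and shedding itself was not measured.

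Of the cytoplasmic partners of syndecans, 9 of 12 tested were lower and 1 was higher. TIAM1, an exchange factor for the small GTPase Rac, fell from 31.6, 35.6 and 48.5 FPKM to 5.91, 7.23 and 9.25, which is 5.17-fold (log2 change -2.22, adjusted p of 0.000759). The kinase gene SRC fell by 1.13 and SORBS3, encoding the adhesion protein vinexin, by 1.03. MSN, which encodes moesin, a link between membrane and actin, was the higher one, with FPKM means of 320 and 443 (log2 change 0.47, adjusted p of 0.00239).

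Of the PTN and MDK receptors, 5 of 7 tested were lower and 1 higher, while both ligands were lower. The 7 tested were PTPRS, NRP1, NOTCH2 and the integrin genes ITGB1, ITGAV, ITGA4 and ITGA6. ALK, LTK, LRP1 and PTPRF were not analysed, as no single row was paired with them. PTPRZ1, NCL and ITGB3 lay under the expression minimum, so the counts cover only part of the receptors. ITGAV, the alpha-v integrin, fell from 80.7 ± 21.1 to 30.5 ± 1.30 FPKM (SD, n = 3 each; log2 change -1.35, adjusted p of 0.00165). NRP1 fell by 1.06 and NOTCH2 by 0.999. ITGB1, the beta-1 integrin and the receptor gene with the highest level, fell from 381 ± 38.3 to 279 ± 4.11 FPKM (log2 change -0.45, adjusted p of 0.0054).

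Of the other heparin-binding ligands, 5 of 9 tested were lower and 2 higher. The matrix proteins tenascin-C (TNC) and thrombospondin-1 (THBS1) fell by 1.58 and 1.37 on the log2 scale, with adjusted p of 0.00129 and 0.00653. VEGFA, the vascular growth factor, rose from 26.2 ± 11.07 to 49.7 ± 4.49 FPKM (SD, n = 3 each; log2 change 0.97, adjusted p of 0.0192), a call lost without N1 replicate 5, N2 replicate 5 or N2 replicate 6 (adjusted p up to 0.0639).

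Markers of cells other than muscle were set beside these results. The 8 fibroblast markers summed to 931 to 1003 FPKM in N1 and 830 to 1035 in N2, which overlap. Most of the sum came from COL1A2, whose mean fell from 693 to 450, and COL3A1, whose mean rose from 241 to 443. Of the 6 tested, 3 were higher (COL3A1, PDGFRB and POSTN) and 3 lower (COL1A2, DCN and LUM), so the overlap of the sums does not show that these genes were steady. The 4 endothelial markers summed to at most 1.94 FPKM with KDR at 0. The 5 immune markers summed to 4.63 to 5.89 in N1 and 2.05 to 3.37 in N2, which do not overlap, with PTPRC at 0 throughout and CD14 lower in N2 (log2 change -0.71, limma adjusted p of 0.0103). As for SLC35B2, a value of 0 for KDR, PTPRC or PGR does not show that the gene was off. The 12 of 13 contractile and fusion genes that passed were all higher in N2, and the 10 of 12 proliferation genes that passed were all lower, so the members' differences moved with these lists and with the immune markers, and the part of any of them in the result was not tested. N1 replicate 6, the library that stood apart, was farthest from N2 for several of the falling genes. Without it the log2 changes were -0.81 for GUSB, -0.82 for ADAM9, -1.14 for ITGAV, -1.37 for TNC and -1.16 for THBS1, and 1.28 for VEGFA, all still past the threshold.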

How the data were processed

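RNA was sequenced from 6 libraries, 3 in each of N1 and N2, grouped by the sample labels. The authors deposited FPKM values, 1 column per library, none pooled. The study's methods name HISAT2, StringTie and HTSeq, whereas the submitters' processing notes name TopHat2, Cufflinks, HTSeq and Sscrofa11.1. Strandedness and the treatment of reads shared between overlapping genes are not given in the sources used here, which touches MDK, PTN, SDC2, GPC1, GPC3 and GPC4, each overlapping another RefSeq locus. Symbols were paired with 11804 of 25322 Ensembl identifiers, and gene coordinates were taken from RefSeq (Sscrofa11.1).

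The 14060 rows whose mean FPKM reached 1 were compared between N1 and N2 on log2(FPKM + 1) with a moderated linear model that lets the variance follow the mean (limma 3.58.1, R 4.3.3, two-sided), with Benjamini-Hochberg adjustment over all of them. Fold changes on that scale understate those of low genes, and ratios in the text are of mean FPKM. Whole fragments were recovered from the steps of the FPKM values for all 19543 rows above 0 in at least 3 libraries (within 0.03 of a whole number), and gave the depths.

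The members and gene lists were chosen with earlier results of these data known. Named genes are the members, from each list up to 3 called genes with the largest change and the one with the highest mean, and the 5 rows most like GPC3. Some genes under this rule are not reported here. HS2ST1, SULF1, SLC35B2, ADAM10, ADAM17 and the cell markers fall outside this rule and were chosen after their values were seen. The fit was repeated for all rows with other pseudocounts (0.1 and 0.01), with the minimum mean FPKM dropped or set to 5, after median-ratio or quantile scaling, without the variance trend, with replicate numbers as blocks, without each library in turn, and by limma voom on recovered fragments. HS2ST1, SULF1, ADAM10, ADAM17 and the cell markers are given from the first fit only, GPC6 also without the minimum, and shares were repeated from fragments and without each library.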

Additional observations from a re-analysis of the deposited data

How the results depend on the processing

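The 6 member calls kept their direction and their side of the threshold in all 15 settings. With a library left out, the log2 change of SDC1 ranged from 0.17 to 0.53, of GPC1 from -0.040 to 0.13 and of HSPG2 from -0.039 to 0.19. Median-ratio scaling gave higher values for GPC1 (0.23) and HSPG2 (0.24) than these ranges, and 0.48 for SDC1, none of them called. With that scaling the called members stood at 1.51 (GPC3), 0.95 (SDC2), -0.50 (MDK), -0.80 (SDC3), -0.90 (PTN) and -0.95 (GPC4). GPC1 turned without N1 replicate 6 (-0.040) and N2 replicate 6 (-0.019), and HSPG2 without N2 replicate 6 (-0.039). Calls over all rows numbered 7156, and 4881 (without N2 replicate 5) to 7268 with a library left out. Of the calls, 32.4% were higher in N2, against 51.8% after median-ratio and 46.2% after quantile scaling. Shares taken from fragments, which keep the gene length, differed by 3.65 points for GPC3, -1.72 for PTN, 1.72 for MDK and 3.29 for SDC1, beside 9.01, -0.997, 0.997 and 1.49 from FPKM. With a library left out, the SDC1 share differed by 0.143 (without N1 replicate 4) to 3.65 points and the GPC1 share by 0.368 (without N1 replicate 6) to 5.51. Same-numbered libraries deviated with correlations of 0.146, -0.0165 and 0.178, so the numbers were not taken as pairs. With the replicate block, 7034 rows and 6 members were called. Depth limited GPC6 only among the members.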

Other observations

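A further list of proteoglycans and related proteins was also mostly lower in N2, with 6 of 8 tested lower and 1 higher. It was drawn up for chondroitin and dermatan sulfate, which not all of its genes carry. Its median log2 change was -0.69, beside 50.9% of all tested rows passing (34.4% lower) and a median of -0.16. FMOD, the collagen-binding fibromodulin, fell from 171 ± 54.1 to 57.3 ± 9.61 FPKM (SD, n = 3 each; log2 change -1.53, limma adjusted p of 0.0025), and its log2 change was -1.29 without N1 replicate 6. DCN, encoding decorin, had FPKM values of 18.8, 19.0 and 18.5 in N1 and 5.09, 6.37 and 6.89 in N2, a log2 change of -1.48 with an adjusted p of 0.00064. LUM, encoding lumican, fell by 1.19. BGN, encoding biglycan, was the higher one, at 180 ± 16.9 and 228 ± 10.8 FPKM (log2 change 0.34, adjusted p of 0.0152), a call lost without N2 replicate 5 (adjusted p of 0.0635).

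Of the enzymes that make chondroitin and dermatan sulfate, 4 of 10 tested were lower and 1 higher, so 50.0% passed, which is near the 50.9% of all rows. CHST15, a sulfotransferase of chondroitin sulfate, fell from 69.6 ± 12.6 to 27.2 ± 5.76 FPKM (SD, n = 3 each; log2 change -1.33, adjusted p of 0.00194). UST, a 2-O-sulfotransferase, fell by 0.85, and DSE, the epimerase that makes dermatan sulfate, by 0.34, a call lost under both scalings and without N2 replicate 5 (adjusted p up to 0.0767). CHPF, a chondroitin polymerizing factor, had FPKM values of 56.2, 59.7 and 60.9 in N1 and 62.3, 65.1 and 77.8 in N2, and its log2 change of 0.21 did not pass (adjusted p of 0.106).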
